A study of Homo sapiens with 6 samples.

Results

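The p53 pathway target genes described here are a list of 41 gene symbols, of which 40 were present under that symbol among the 18236 genes of the deposited table. The symbol without a row was TIGAR, whose older symbol C12orf5 did have a row, and its values are given apart and enter no count of members; where it is counted beside them it is named. The list was chosen by gene name and used no measured value, although earlier results of these data were known when it was chosen. It holds MDM2 and other genes of p53 feedback with the p53 relatives TP63 and TP73, genes of cell cycle arrest, genes of apoptosis with the death receptors, DNA repair genes, and genes of metabolism or secreted factors.

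A pair of HCT116 derivatives was compared by RNA-Seq, to ask how the transcriptome differs between mutant and wild-type β-catenin. HCT116 is a human colorectal cancer cell line, and each derivative has lost 1 allele of the β-catenin gene CTNNB1. Cells of the mutant line (CTNNB1-/Δ45) carry only the allele with the stabilizing Δ45 deletion, and the wild-type cells (CTNNB1 WT/-) carry only the intact allele, with 3 samples of each and no treatment in either line. Each genotype is represented by 1 line, so that other differences between the lines cannot be told apart from the CTNNB1 allele, and no label says that the samples of a line were separate cultures.

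The transcription factor p53 is stabilized after DNA damage and other stress, binds sites in or near its target genes and raises their transcription. MDM2 is itself a target and marks p53 for degradation, which closes a feedback loop, while the p21 protein made from CDKN1A halts the cell cycle and, through the DREAM complex, lowers many cell cycle genes. HCT116 is known as a line that retains p53 function. mRNA levels, as measured here, do not report the amount or activity of the p53 protein.

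In the mutant line the p53 target genes did not move as a block. In the limma test, which was run across all genes and adjusted with the Benjamini-Hochberg method, 3 of the 39 members tested were higher in mutant than in wild-type cells (FAS, PPM1D and TP73) and 7 were lower (CDKN1A, GADD45A, PLK3, SFN, BTG1, BBC3 and GDF15). The falls were in arrest genes for 5 of these 7, and the widest were those of BBC3 (log2 fold change -2.60), GDF15 (-2.53) and PLK3 (-1.96). The other 29 tested members did not pass, and MDM2 was among them. Among all 14539 genes tested, 17.3% were called higher and 10.0% lower, so the share of members called higher (7.69%) was below that background and the share called lower (17.9%) was above it. These shares describe the list and were not tested. The quasi-likelihood test of edgeR called 3 members higher and 8 lower, beside backgrounds of 12.3% and 11.2%, and DESeq2 called 3 and 10, beside 21.7% and 20.6%.

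The values, here called normalized counts, are gene counts after the authors' division by a size factor, and in each sample they were whole multiples of a single step that was read as 1 read. On this reading the mutant samples held between 33.5 and 57.9 M reads in genes and the wild-type samples between 21.8 and 41.4 M. The samples numbered 1 of both lines were closer to each other than the other pairs were, with a standard deviation across genes of 0.51 for the log2 difference between mutant 1 and wild-type 1, against 1.42 between the samples numbered 2 and 1.46 between those numbered 3. The calls depended on the remaining samples. Without mutant replicate 2 or 3, or without wild-type replicate 2 or 3, limma called 0 members in either direction, with an unadjusted p under 0.05 for 3 higher and for 8 or 9 lower. Calls were lost over the whole table, where limma called 0 to 6 of 14539 genes higher and 0 to 17 lower in these fits, with an unadjusted p under 0.05 for 18.2% to 18.8% higher and 10.5% to 11.0% lower. For the fit to all samples these shares at an unadjusted p were 32.3% higher and 17.8% lower. In the same 4 fits edgeR called 0 members higher and 0 or 1 lower (at most 12 and 18 of all genes), and DESeq2 called 2 higher and 5 lower (6.91% to 7.92% and 5.82% to 6.95% of all genes). Without replicate 1 limma called more, at 8 members higher and 11 lower when it was left out of the mutant line, 10 and 8 when it was left out of the wild-type line, and 17 and 14 without both. Of all genes the same fits called 35.6% higher and 21.2% lower, 34.1% and 15.3%, and 53.1% and 29.1%. Of 13 colorectal epithelial markers 11 reached a mean of 10 normalized counts (CDX1 and LGALS4 did not), and the summed level of these markers was 48923 to 53336 in mutant cells and 65269 to 68580 in wild-type cells. Of the 6 leukocyte markers present only CSF1R reached 10, and the 6 summed to 22.1 to 30.8 in mutant and 82.2 to 183 in wild-type cells. COL1A1, COL3A1 and PDGFRB did so among 7 fibroblast markers (sums of 1980.3 to 4478 in mutant and 3582 to 4708 in wild-type cells), and VWF and KDR among 4 endothelial markers (65.3 to 89.2 and 118 to 152). The part of these differences in the results was not tested.

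**Figure D1:**
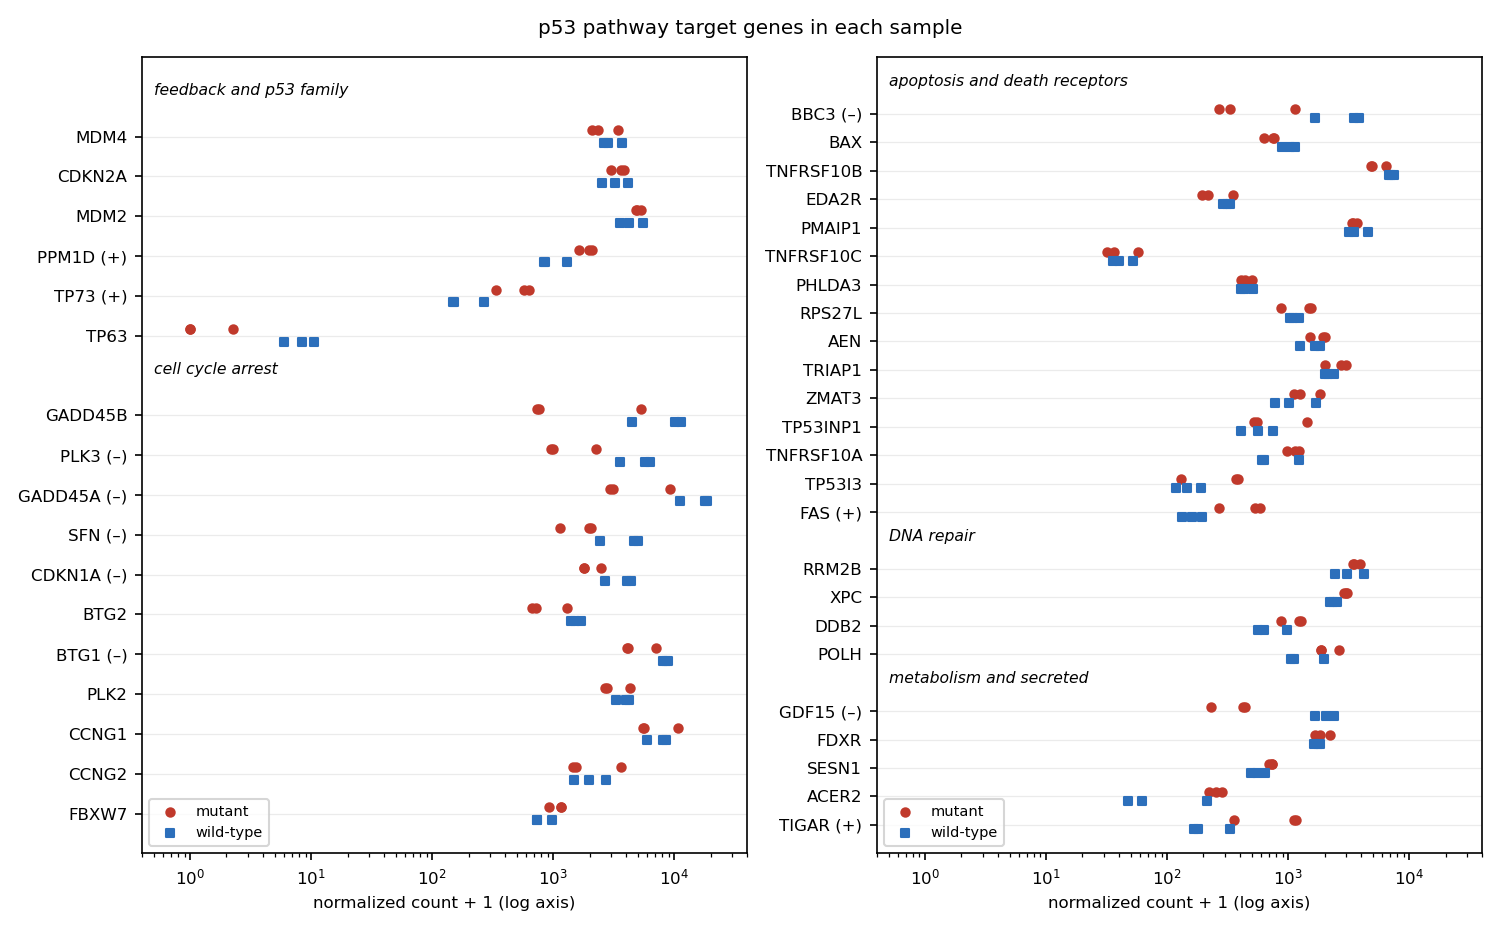
Normalized counts plus 1 (log axis) of the 40 members present and of TIGAR, in each of the 3 mutant samples (circles) and the 3 wild-type samples (squares), by role; a plus or minus sign after a name marks a gene called higher or lower in mutant cells by limma. The largest separation within a gene is that of GDF15, at 230.2 to 440.4 in mutant and 1659.5 to 2413 in wild-type samples, while TP63 lies below 10 in all 6.

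A median log2 fold change of 0.24 was found over all genes tested with the authors' scaling, and of 0.01 with edgeR, so changes are also given relative to that median where stated. The median of the 39 members was 0.11, or -0.14 relative to all genes. Of these members 21 had a positive fold change and 13 lay above the median of all genes. The sign of 8 members differed between limma and edgeR (MDM2, CCNG2, RRM2B, RPS27L, FDXR, AEN, TRIAP1 and CDKN2A), and 0 of these 8 were called by limma (unadjusted p between 0.27 and 0.982) or by edgeR or DESeq2. In 6 members the 3 mutant values were all above the 3 wild-type values, and in 10 they were all below, which is 15.4% and 25.6% of the members tested against 26.6% and 19.1% of all genes.

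**Figure D2:**
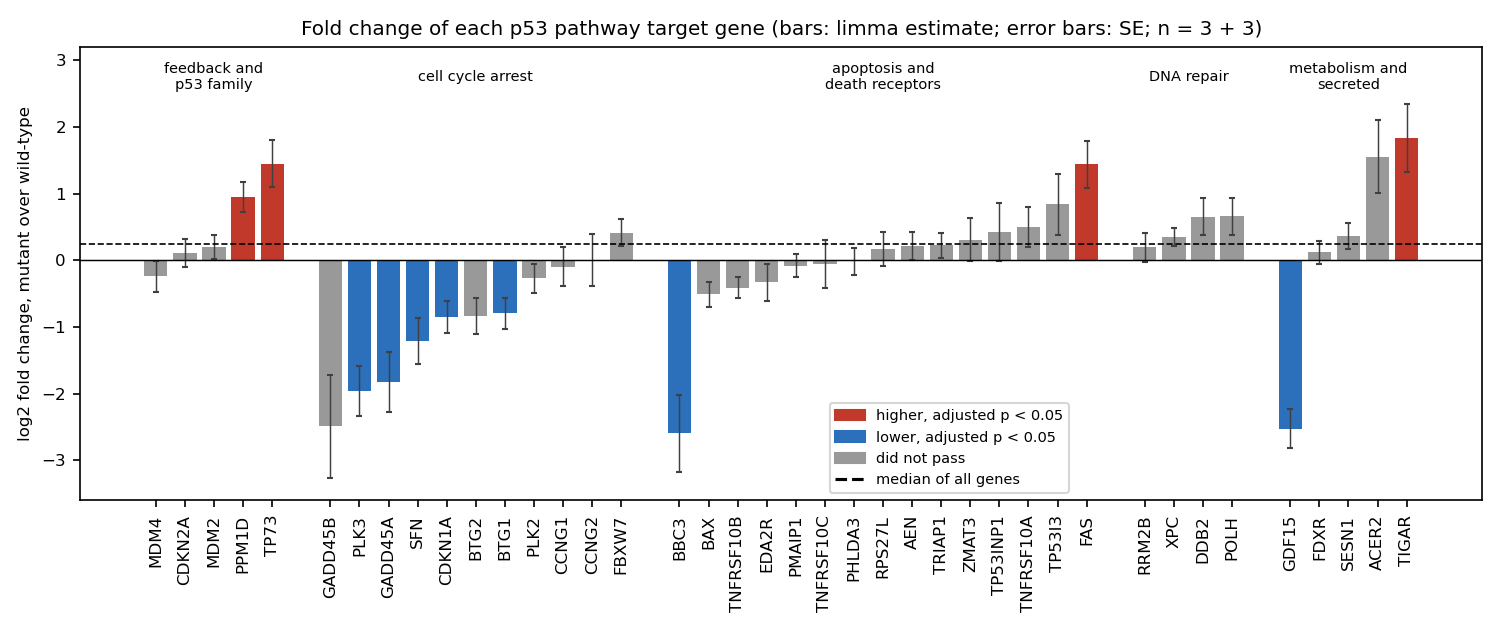
Log2 fold change of mutant over wild-type cells for the 39 members tested and TIGAR, with standard errors from limma (n = 3 in each line), ordered within each role from lowest to highest; the dashed line is the median of all genes (0.24). Most arrest genes lie below 0 (5 called lower and 0 higher, beside 10.0% and 17.3% of all genes). All 4 DNA repair genes are above 0 without passing the test, and 3 of them are above the median of all genes.

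The 250 bases before each annotated transcription start (RefSeq, GRCh38.p14) were read, because p53 target genes are defined by p53 binding. The set of start sequences used held 33 of the members. A gene was counted when the window before any of its starts held a match, over 35116 windows of 27305 genes. A match can therefore lie before an alternative start of a gene. A p53 site was searched as 2 abutting half-sites of 10 bases with up to 2 mismatches in the 20 bases; its pattern reads the same on both strands. Such a match was found in 4 of these members (12.1%), against 0.71% of 27305 genes. Because the members were listed as p53 targets, this contrast describes the list and is no test. The 4 windows are shown with 20 flanking bases where the search window allows, with the matched 20 bases in capitals. They belong to 2 of the genes called higher, FAS and TP73, and to 2 that did not pass, MDM2 and AEN. None of the 6 genes called lower that were in the set searched had such a match in these windows, which says nothing of sites elsewhere.
FAS, chr10:88991289-88991348, plus strand: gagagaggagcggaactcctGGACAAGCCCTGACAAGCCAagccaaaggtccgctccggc
TP73, chr1:3690576-3690635, plus strand: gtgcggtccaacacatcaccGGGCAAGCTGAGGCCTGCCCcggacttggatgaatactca
MDM2, chr12:68808903-68808962, plus strand: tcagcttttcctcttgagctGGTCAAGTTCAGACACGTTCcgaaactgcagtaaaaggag
AEN, chr15:88621286-88621339, plus strand: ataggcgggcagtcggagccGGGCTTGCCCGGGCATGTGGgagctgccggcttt

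For comparison, 3 other short motifs were read in the same windows. The letters TATAAA, on either strand, were found in 4 members (12.1%) and 13.1% of all genes. The members were GDF15 and BTG1, both lower in mutant cells, and GADD45B and FBXW7. CTTTGA, on either strand, the core of sites for the TCF partners of β-catenin, was found in 3 members (9.09%: FAS, ZMAT3 and EDA2R) and in 13.5% of all genes. In FAS it lay before another annotated start than the p53 match did. The cAMP response element TGACGTCA, the same on both strands, was found in PPM1D alone among the members (3.03%) and in 2.03% of all genes. The windows of GDF15, BTG1 and PPM1D are given because these genes were called and hold TATAAA or the cAMP response element close to an annotated start. The positions were -29 to -24 for GDF15, -33 to -28 for BTG1 and -61 to -54 for PPM1D.
GDF15, chr19:18386109-18386154, plus strand: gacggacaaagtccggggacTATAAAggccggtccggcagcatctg
BTG1, chr12:92145854-92145899, minus strand: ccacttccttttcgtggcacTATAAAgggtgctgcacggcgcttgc
PPM1D, chr17:60600112-60600159, plus strand: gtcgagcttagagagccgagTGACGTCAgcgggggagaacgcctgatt

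The feedback genes and p53 relatives held 2 of the 3 rises. Of 5 tested, 2 were called higher and 0 lower, beside 17.3% and 10.0% of all genes. The median of the 5 was -0.05 relative to all genes. PPM1D encodes the phosphatase WIP1, which reverses damage signalling and restrains p53, and lies on chromosome 17 (58677554 to 58743641, plus strand). PPM1D had 1648, 2076 and 1989.9 normalized counts in the mutant samples and 1299, 842 and 859 in the wild-type samples. Every mutant value was above every wild-type value, and sample 1 was the lowest of the mutant and the highest of the wild-type line. This was a log2 fold change of 0.95 ± 0.22 (standard error, limma adjusted p = 0.0404).

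TP73 encodes the p53 relative p73, which binds similar sites, and lies on chromosome 1 (3569080 to 3652765, plus strand). TP73 had 338, 627 and 571 normalized counts in the mutant samples, against 265, 151 and 147 in the wild-type samples, again without overlap and with the samples numbered 1 nearest to each other. limma gave a log2 fold change of 1.45 ± 0.35 (standard error, limma adjusted p = 0.0412). Of its 6767 exonic bases 633 overlap the antisense gene TP73-AS1, which had at most 2.21 normalized counts in any sample. TP63, the gene of the other relative, p63, was below the mean of 10 needed for the test; with no filter on low values limma called it lower (adjusted p = 0.0376). Its values were 1.26, 0 and 0 normalized counts in mutant and 7.36, 9.50 and 5.00 in wild-type samples. A count of 0 allows up to 3 reads, or 3.32 and 3.18 normalized counts in mutant samples 2 and 3, for counting error only.

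MDM2, the ubiquitin ligase that degrades p53 and the classical readout of the loop, had 4933, 5264 and 4829.8 normalized counts in mutant cells and 5497, 4234 and 3592 in wild-type cells. The lines overlapped, since wild-type 1 was the highest of all 6 samples. The change of 0.19 ± 0.18 in log2 (standard error) did not pass (limma adjusted p = 0.401), and it was -0.05 relative to all genes. MDM2 lies on chromosome 12 (69201957 to 69239324, plus strand) and shares 133 of 8306 exonic bases with CPM on the other strand, a gene of only 37.3 to 47.6 normalized counts in mutant and 18.1 to 20.9 in wild-type samples. MDM4, which encodes the related inhibitor of p53, ranged from 2084 to 3446 in mutant and from 2653 to 3707 in wild-type cells (log2 fold change -0.24, not passing). CDKN2A encodes the CDK inhibitor p16 and, in another reading frame, ARF, which blocks MDM2. Gene counts cannot separate these products, and CDKN2A ranged from 3014 to 3861 in mutant and from 2518 to 4154 in wild-type cells (log2 fold change 0.11, not passing).

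The members were divided into roles for this report, and counts by role depend on that choice. The arrest genes were the group with the most falls. Of 11 tested members 5 were called lower and 0 higher with limma, beside 10.0% and 17.3% of all genes. At an unadjusted p under 0.05 there were 7 lower and 0 higher, beside 17.8% and 32.3% of all genes. edgeR gave 5 lower and 0 higher (11.2% and 12.3% of all genes), and DESeq2 6 and 0 (20.6% and 21.7%). The median log2 fold change of the group was -0.84, or -1.08 relative to all genes. It lay between -0.80 and -1.35 relative to all genes when single samples were left out in limma, edgeR or DESeq2, although limma made 0 calls among these genes in each of the 4 fits without a sample numbered 2 or 3. Without replicate 1 of both lines 8 arrest genes were called lower and 1 higher, beside 29.1% and 53.1% of all genes.

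CDKN1A encodes p21, the CDK inhibitor through which p53 halts the cell cycle in G1. CDKN1A had 2497, 1812 and 1808 normalized counts in the mutant samples, against 2689, 4042 and 4389.8 in the wild-type samples. The lines did not overlap, but mutant 1 and wild-type 1 were almost level, and the difference came from samples 2 and 3. In log2 terms the fold change was -0.85 ± 0.24 (standard error, limma adjusted p = 0.0435). CDKN1A lies on chromosome 6 (36644237 to 36655114, plus strand).

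GADD45A, a stress sensor that acts in G2/M arrest and repair, had the highest mean per kilobase of exonic sequence among the members, at 2652 normalized counts per kb in mutant and 8274 in wild-type cells. In mutant cells this rests on sample 1, without which the mean of GADD45A was 1572 per kb, after TRIAP1 (2039) and CCNG1 (1805). Its sample values were 9263, 2927 and 3128 normalized counts in mutant and 11109.8, 18678 and 17996 in wild-type cells. Mutant 1 lay near wild-type 1 and far from mutant 2 and 3. The fitted log2 fold change was -1.82 ± 0.45 (standard error, limma adjusted p = 0.0413). Its relative GADD45B showed the same picture more sharply, with 5274, 728 and 762 normalized counts in mutant and 4464, 10217 and 11363 in wild-type cells. Here mutant 1 exceeded wild-type 1, so the lines overlapped, and the change of -2.49 ± 0.77 in log2 (standard error) did not pass (limma adjusted p = 0.0503). GADD45B was called lower with TMM-rescaled values, with no filter and with a pseudocount of 10 (adjusted p from 3.71e-07 to 0.169 over 16 alternatives). With all samples edgeR and DESeq2 did not call it (adjusted p = 0.0914 from edgeR with TMM factors and 0.0861 from DESeq2).

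PLK3, a polo-like kinase of the stress response, had 2249, 957 and 1005 normalized counts in the mutant samples, against 3549, 5782 and 6283 in the wild-type samples. All mutant values were below all wild-type values, with mutant 1 and wild-type 1 closest. Its log2 fold change was -1.96 ± 0.37 (standard error, limma adjusted p = 0.0374). Only 98 of its 3327 exonic bases overlap a gene on the other strand, TCTEX1D4, whose level was at most 31.1 normalized counts. PLK2, the related kinase, ranged from 2699.9 to 4281 in mutant and from 3322 to 4233 in wild-type cells and did not pass (log2 fold change -0.27).

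SFN encodes 14-3-3σ, which holds cyclin B1-CDK1 in the cytoplasm and is an epithelial protein. SFN had 1134, 2035 and 1982 normalized counts in the mutant samples, against 2452, 4647 and 4991 in the wild-type samples. In contrast to the genes above, sample 1 was the lowest of both lines, and the log2 difference between samples of the same number was similar at -1.11, -1.19 and -1.33. This was a log2 fold change of -1.21 ± 0.34 (standard error, limma adjusted p = 0.0438). Without mutant replicate 1 the adjusted p was 0.0528, and over 16 alternatives it ranged from 2.71e-06 to 0.168. The summed epithelial markers were also lower in mutant cells, as given above, and their part in the SFN difference was not tested.

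BTG1 and BTG2 encode antiproliferative proteins of one family. BTG1 had 7076, 4034 and 4146 normalized counts in the mutant samples, against 8601, 8834 and 8147 in the wild-type samples. The wild-type samples lay close together, and mutant 1 was nearer to them than to mutant 2 and 3. limma gave a log2 fold change of -0.80 ± 0.23 (standard error, limma adjusted p = 0.0451). Without wild-type replicate 1 the adjusted p was 0.0562, and with upper-quartile factors in edgeR 0.0515, within a range of 5.56e-06 to 0.168 over 16 alternatives. BTG2 had 1303, 671 and 726 normalized counts in mutant and 1409, 1517 and 1687 in wild-type cells without overlap, and its log2 fold change of -0.84 did not pass (adjusted p = 0.0557 from limma). DESeq2 and limma on TMM-rescaled values did call BTG2 lower (adjusted p from 1.29e-05 to 0.191 over 16 alternatives). With TMM factors edgeR did not (adjusted p = 0.059).

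The remaining arrest genes overlapped between the lines. CCNG1, the gene of cyclin G1 and one of the first p53 targets described, ranged from 5511 to 10836 normalized counts in mutant and from 5962 to 8633 in wild-type cells. CCNG2, of cyclin G2, ranged from 1461 to 3605 in mutant and from 1482 to 2734 in wild-type cells. In both genes mutant 1 was the highest sample, and their log2 fold changes were -0.10 and 0.01. Without mutant replicate 1 edgeR and DESeq2 called CCNG1 lower, and both called CCNG2 lower, with a log2 fold change of -0.73. FBXW7, which encodes the substrate receptor of a ubiquitin ligase for cyclin E and MYC, ranged from 928 to 1168 in mutant and from 730.1 to 982 in wild-type cells (log2 fold change 0.42, not passing).

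**Figure D3:**
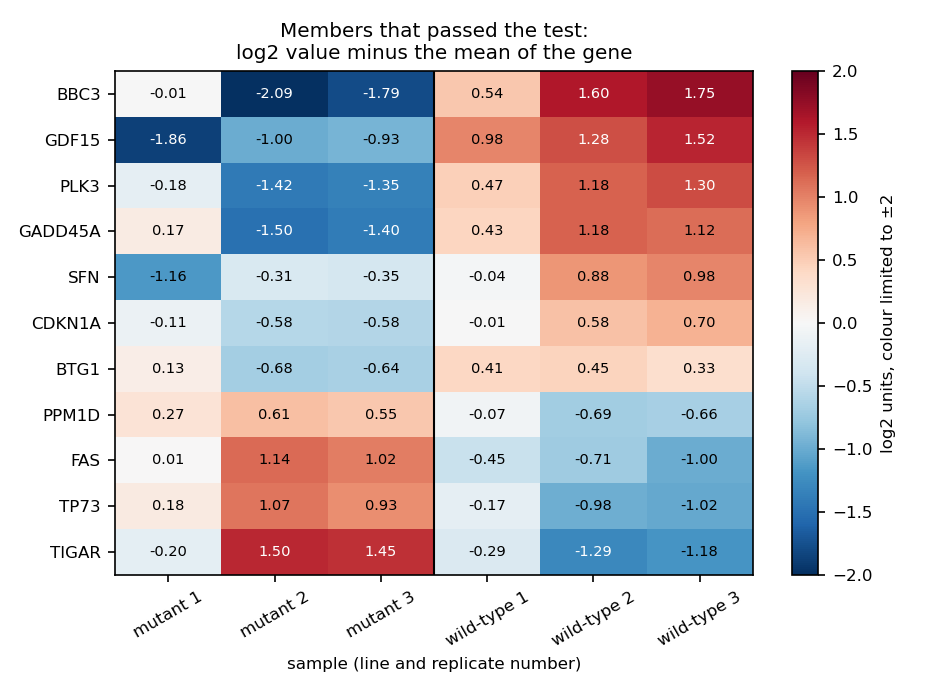
Log2 values (normalized count plus 1) minus the mean of the gene over the 6 samples, for the 10 members called by limma and TIGAR, with the mutant samples on the left. Samples 2 and 3 of a line look alike, and sample 1 lies between the lines in most rows. The exceptions are GDF15 and SFN in mutant cells and BTG1 in wild-type cells.

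Among the 11 genes called (10 members and TIGAR), mutant 1 lay between the mean of mutant 2 and 3 and the mean of wild-type 2 and 3 in 9, the exceptions being GDF15 and SFN. Wild-type 1 lay between these means in 10, the exception being BTG1.

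Few of the apoptosis genes passed the test. Of 15 tested members 1 was called higher (FAS) and 1 lower (BBC3) with limma. This was 6.67% in each direction, beside 17.3% and 10.0% of all genes. The median relative to all genes was -0.07. FAS encodes the receptor of Fas ligand, and lies on chromosome 10 (90750414 to 90775542, plus strand). FAS had 266, 581 and 535 normalized counts in the mutant samples, against 193, 161 and 132 in the wild-type samples, with every mutant value above every wild-type value. In log2 terms the fold change was 1.44 ± 0.35 (standard error, limma adjusted p = 0.0413). FAS shares 380 of 3562 exonic bases with ACTA2 on the other strand, which had 141 to 197 normalized counts in mutant and 159.8 to 190.3 in wild-type samples and did not pass (adjusted p = 0.826 from limma).

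BBC3 encodes PUMA, the BH3-only protein that is a main effector of p53-driven apoptosis, and lies on chromosome 19 (47724079 to 47736023, minus strand). BBC3 had 1141, 269 and 332 normalized counts in the mutant samples, against 1677, 3499 and 3859 in the wild-type samples. The lines did not overlap, and the samples numbered 1 were much nearer to each other than the rest. Its log2 fold change, -2.60 ± 0.58 (standard error, limma adjusted p = 0.0404), was the most negative of all members in limma, whereas edgeR and DESeq2 put BBC3 (-2.58 and -2.60) after GDF15 (-2.76 and -2.77). PMAIP1, the gene of the other BH3-only target NOXA, stayed within its spread, at 3371 to 3678 in mutant and 3204 to 4532 in wild-type cells (log2 fold change -0.08, not passing).

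BAX, the pore-forming effector of mitochondrial apoptosis, had 636, 763 and 750.3 normalized counts in the mutant samples, against 894, 1043 and 1134 in the wild-type samples. All mutant values were below all wild-type values, and unlike most called members the samples numbered 1 were not drawn together, being the lowest of each line. Its change of -0.51 ± 0.19 in log2 (standard error) was not called by limma (adjusted p = 0.0696), whereas edgeR called it lower (adjusted p = 0.0423), as did DESeq2 and limma on TMM-rescaled values (range 0.000612 to 0.233 over 16 alternatives).

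The TRAIL receptors differed among themselves. TNFRSF10B, the death receptor DR5, was the most abundant of the 3, with 4832 to 6408 normalized counts in mutant and 6756 to 7456 in wild-type cells. These ranges do not overlap, but the log2 fold change of -0.41 did not pass with limma (adjusted p = 0.0759) or with edgeR (0.0551). DESeq2 and limma on TMM-rescaled values called TNFRSF10B lower (0.000136 to 0.254 over 16 alternatives). TNFRSF10A, the death receptor DR4, ranged from 981 to 1220.5 in mutant and from 603 to 1235 in wild-type cells, where wild-type 1 was the highest of all 6 (log2 fold change 0.51, not passing). TNFRSF10C, a decoy receptor, had 30.8 to 56.9 in mutant and 34.97 to 51.6 in wild-type cells. Per kilobase TNFRSF10B reached means of 1074 in mutant and 1419 in wild-type cells, TNFRSF10A 379.8 and 282, and TNFRSF10C 26.6 and 27.1. TNFRSF10B shares 377 of 5010 exonic bases with RHOBTB2 on the other strand, a gene called higher in mutant cells (409.8 to 698 normalized counts in mutant and 147 to 373 in wild-type samples).

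The other 8 apoptosis members overlapped between the lines and had log2 fold changes from -0.33 (EDA2R, a receptor of the TNF family) to 0.84 (TP53I3, a quinone oxidoreductase). TP53I3 had 130.3, 384 and 367 normalized counts in mutant and 189, 117 and 145 in wild-type cells, so that mutant 1 lay within the wild-type range (adjusted p = 0.173 from limma). TP53INP1, a stress-induced partner of p53, had its highest value in mutant 1, at 1431 against 526 and 554 in the other mutant samples and 405 to 752 in wild-type cells. Fold changes between -0.02 and 0.31 were found for PHLDA3, an inhibitor of AKT, for RPS27L, for AEN, an apoptosis-related nuclease, for TRIAP1, a mitochondrial inhibitor of apoptosis, and for ZMAT3, an RNA-binding protein. RPS27L is a close paralog of RPS27, which was several times more abundant per sample (4425 to 8936 in mutant and 7586 to 11133 in wild-type samples), and how reads common to both were counted is not given in the sources used here.

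None of the 4 DNA repair genes passed the limma test, beside 17.3% of all genes called higher and 10.0% lower. At an unadjusted p under 0.05 in limma 3 of the 4 were higher and 0 lower, beside 32.3% and 17.8% of all genes. edgeR called 0 of the 4 (12.3% higher and 11.2% lower of all genes), as did DESeq2 (21.7% and 20.6%). XPC, the damage sensor of global nucleotide excision repair, had 2919, 3093 and 3013 normalized counts in mutant and 2513, 2232 and 2359.8 in wild-type cells, without overlap (log2 fold change 0.35, adjusted p = 0.082 from limma). DDB2, which recognizes ultraviolet lesions, ranged from 868 to 1270.3 in mutant and from 563 to 975 in wild-type cells. POLH, the polymerase that bypasses such lesions, ranged from 1878 to 2614 in mutant and from 1054 to 1965 in wild-type cells. Both overlapped through the samples numbered 1 and had log2 fold changes of 0.66 each. RRM2B, the p53-induced subunit of ribonucleotide reductase, had a log2 fold change of 0.20. The median of the 4 was 0.50, or 0.26 relative to all genes, and without replicate 1 of both lines limma called all 4 higher, as it did 53.1% of all genes.

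Among genes of metabolism and secreted factors, GDF15 had the smallest p of all members. GDF15 encodes a secreted cytokine of the TGF-β superfamily that is induced by p53 and by other stress pathways, and lies on chromosome 19 (18485541 to 18499986, plus strand). GDF15 had 230.2, 420.5 and 440.4 normalized counts in the mutant samples, against 1659.5, 2045 and 2413 in the wild-type samples. The highest mutant value was far below the lowest wild-type value, and the difference was as wide between the samples numbered 1 as between the others, at -2.84, -2.28 and -2.45 on the log2 scale. The fitted log2 fold change was -2.53 ± 0.30 (standard error, limma adjusted p = 0.0138).

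TIGAR, listed in the table as C12orf5, encodes a fructose-bisphosphatase that lowers glycolysis. It had 353, 1151 and 1113 normalized counts in the mutant samples, against 333, 165 and 178 in the wild-type samples, so the lines separated by samples 2 and 3 while the samples numbered 1 were nearly level. Its log2 fold change was 1.84 ± 0.51 (standard error, limma adjusted p = 0.0435). ACER2, an alkaline ceramidase, had 220.1, 282 and 253 normalized counts in mutant and 211, 61.3 and 46.6 in wild-type cells, without overlap, and a log2 fold change of 1.55 that did not pass (adjusted p = 0.0648 from limma). SESN1, the gene of the mTORC1 inhibitor sestrin 1, had 696 to 739 in mutant and 496 to 648 in wild-type cells, also without overlap (log2 fold change 0.37, adjusted p = 0.155 from limma). FDXR, of ferredoxin reductase, overlapped between the lines (log2 fold change 0.12).

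By mean normalized count per kilobase, the order in mutant cells was led by GADD45A (2652), CCNG1 (2370.2), TRIAP1 (1838), PMAIP1 (1604), SFN (1313) and TNFRSF10B (1074). In wild-type cells it was led by GADD45A (8274), GADD45B (4060.4), SFN (3081), CCNG1 (2435), BTG1 (1756) and PMAIP1 (1714). Of the 40 pairs of neighbours in the order, TIGAR included, the sample ranges overlapped in 38 in mutant and 36 in wild-type cells. The order is therefore mostly not resolved by these samples. The exonic length joins the exons of all annotated transcripts, expressed or not (8825 bases for RPS27L), so the order also depends on the annotation. In wild-type cells GADD45A lay above GADD45B and CCNG1 above BTG1 without overlap. At the other end FAS (45.4), ACER2 (38.4), TP73 (27.7), TNFRSF10C (27.1) and TIGAR (23.9) were the lowest in wild-type cells before TP63, whose mean was 0.0564 per kb in mutant and 0.974 in wild-type cells.

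Each member was also set beside its chromosomal neighbours, meaning the tested genes whose midpoint lies within 1 Mb of its own. Of the 35 members with at least 5 such neighbours, 23 had the same sign as the median of their neighbours, both relative to all genes. The sign was shared by 6 of the 9 called members among them and not by CDKN1A, GADD45A and TP73. Around BBC3 32 neighbours had a relative median of -0.68, and 52 around GDF15 had -0.54, against -2.84 and -2.77 for the genes themselves. Around PPM1D 6 of 11 neighbours were called higher and 0 lower, with a relative median of 0.55 beside 0.71 for the gene. BAX lay among 88 tested neighbours of which 32 were called lower and 4 higher, with a relative median of -0.90 beside -0.76 for BAX. The 11 neighbours of MDM2 had a relative median of 0.72, beside -0.05 for MDM2.

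**Figure D4:**
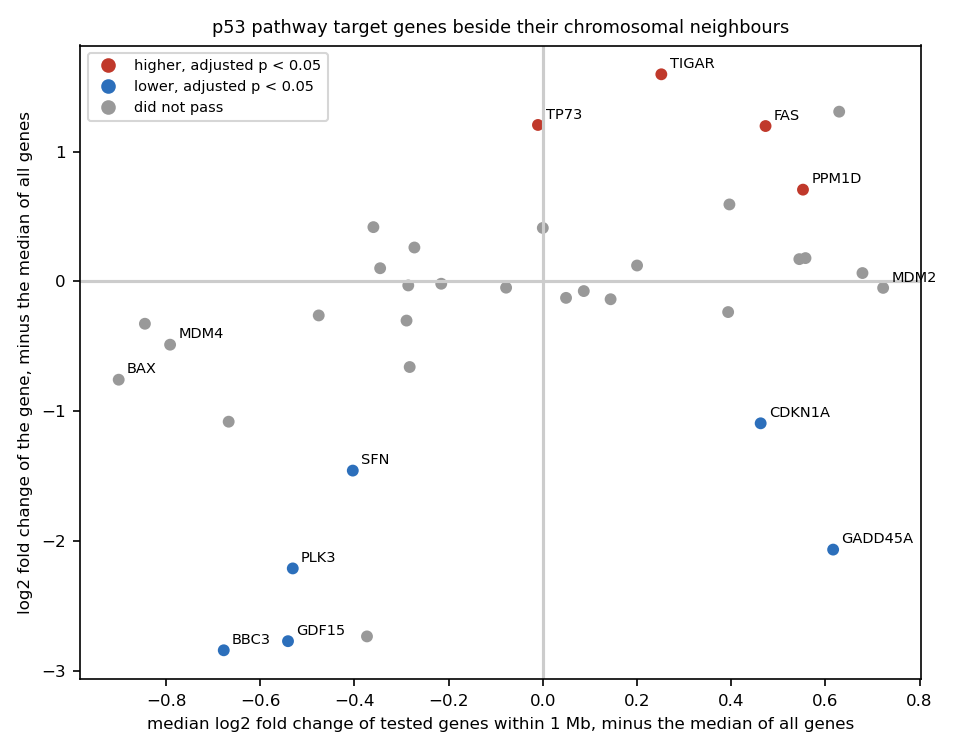
Log2 fold change of each gene (vertical) against the median of the tested genes within 1 Mb (horizontal), both minus the median of all genes, for members with at least 5 neighbours and TIGAR; colours give the limma call. BBC3 (-2.84) and GDF15 (-2.77) lie far below their neighbours' medians, and BAX (-0.76) lies near its own.

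To see the members beside the rest of the pathway, 3 further lists were read in the same fit. Of 59 tested genes that p53 is known to activate and that are not members, 11 were called higher and 6 lower, or 18.6% and 10.2% beside the backgrounds of 17.3% and 10.0%. edgeR called 8 higher and 11 lower (13.6% and 18.6%, beside 12.3% and 11.2% of all genes). DESeq2 called 15 and 16 (25.4% and 27.1%, beside 21.7% and 20.6%). The balance between directions depended on the tool, in this list and over all genes. The median was -0.11 relative to all genes, close to that of the members. SERPINB5, the gene of maspin, had 526, 536 and 534 normalized counts in mutant and 956, 1038 and 958 in wild-type cells (log2 fold change -0.89, adjusted p = 0.0372 from limma). SLC12A4 and TRAF4 had log2 fold changes of -1.31 and -1.05 and were also called lower. Called higher were DRAM1, which encodes a lysosomal protein of autophagy, APAF1, the core of the apoptosome, with 1807 to 2020.4 in mutant and 981 to 1285 in wild-type cells, and TRIM32, a ubiquitin ligase (log2 fold changes 1.37, 0.80 and 1.91).

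Of 36 regulators and cofactors of p53 that are not members, limma called 6 higher and 5 lower. These shares of 16.7% and 13.9% stood beside 17.3% and 10.0% of all genes. edgeR called 3 and 5 (8.33% and 13.9%, beside 12.3% and 11.2% of all genes). DESeq2 called 7 and 6 (19.4% and 16.7%, beside 21.7% and 20.6%). PPP1R13L encodes iASPP, an inhibitor of p53. It had 866, 962 and 878 normalized counts in mutant and 1678, 1782 and 1877 in wild-type cells, with little spread inside either line (log2 fold change -0.98, adjusted p = 0.0267 from limma). TRIM24, a ubiquitin ligase for p53, HIPK2, a kinase of p53, and KAT2B, an acetyltransferase, were higher, with log2 fold changes of 1.32, 1.07 and 1.56. RPL26, a ribosomal protein, and STK11, the kinase LKB1, were lower, with -1.05 and -0.75.

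The 40 cell cycle genes that the DREAM complex represses downstream of p21 stood mostly above 0. With limma 16 (40.0%) were called higher and 0 lower, and at an unadjusted p under 0.05 28 of the 40 were higher and 1 lower, beside 17.3% and 10.0% of all genes called and 32.3% and 17.8% at an unadjusted p. edgeR called 13 higher and 1 lower and DESeq2 17 and 1. The median was 0.73, or 0.48 relative to all genes. TYMS, thymidylate synthase, had 1009.9, 2301 and 2319.9 normalized counts in mutant and 728, 321 and 376 in wild-type cells (log2 fold change 1.98, adjusted p = 0.0404 from limma). FOXM1, a transcription factor of G2/M genes, the replication licensing genes MCM2 and MCM6, the checkpoint kinase gene BUB1B and BIRC5, the gene of survivin, had log2 fold changes of 1.40, 0.82, 1.23, 1.13 and 0.60. Like the calls among the members, these calls were 0 for limma when a sample numbered 2 or 3 of either line was left out. Whether the differences in this list and in CDKN1A are related was not tested.

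**Figure D5:**
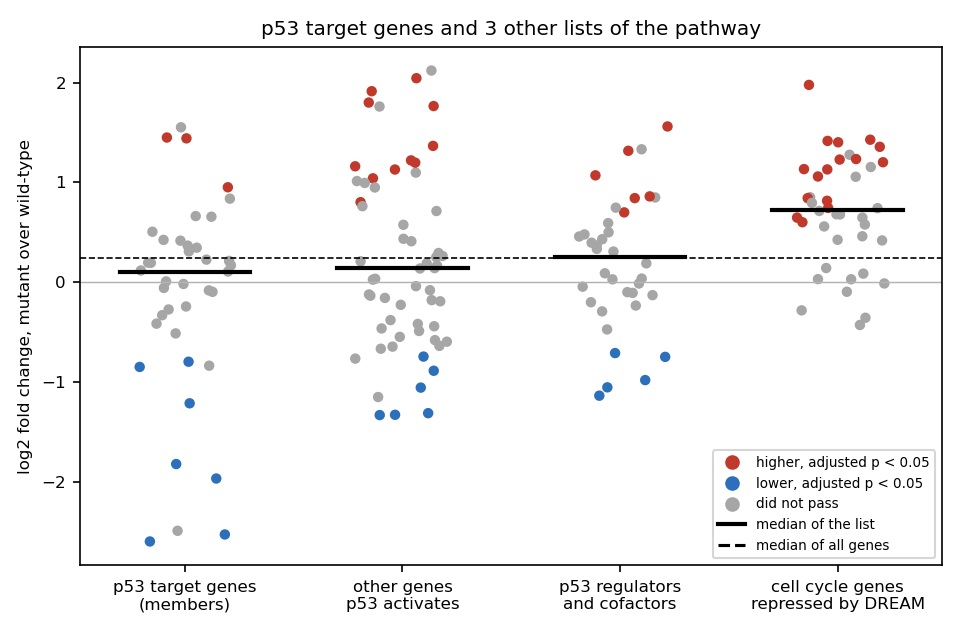
Log2 fold change of mutant over wild-type cells for each tested gene of the members and of 3 further lists (points, coloured by limma call), with the median of each list (thick line) and of all genes (dashed, 0.24). The medians are 0.11 for the members, 0.14 for the other genes p53 activates, 0.25 for regulators and cofactors and 0.73 for the DREAM-repressed genes.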

How the data were processed

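RNA of 3 mutant and 3 wild-type HCT116 samples was prepared with removal of ribosomal RNA according to the protocol, although the molecule field says polyA RNA. The authors mapped reads to hg19 with TopHat2 2.1.0 and summarized them by gene with HTSeq. CASAVA 1.8.2 and DESeq appear in the submitters' processing notes as well. The deposited signal values are counts the authors divided by a size factor per sample. The log2 fold changes and adjusted p-values that the authors placed in the same table were not used. In every sample 100% of values were whole multiples of 1 step within 0.001, and the reads recovered so were used for edgeR and DESeq2.

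A gene entered the test when its mean normalized count reached 10. limma, with moderated variances following a trend, was applied to log2(value + 1), where a fold change understates that of low genes. Genes were called at an adjusted p under 0.05 over all genes. R 4.3.3, limma 3.58.1, edgeR 4.0.16, DESeq2 1.42.0 and Python 3.11.15 were used, and the fits were tested on simulated data. Symbols were matched to GENCODE 44 on GRCh37, 15673 directly and 1477 by an older symbol, and 1086 were not matched. No label tells whether samples came from separate cultures, so p-values reflect the spread among the samples at hand, possibly a technical one. The members, the further lists and the tests were chosen with earlier results of these data known. Full values are given for members called by limma and for CDKN1A, MDM2, BAX, FAS and GDF15, and up to 6 called genes with the smallest p are named from each further list. Some genes of these lists are not reported here and enter no list count. Other members with full values, and the overlapping genes, were chosen after their values were seen. Alternatives were edgeR with TMM or upper-quartile factors, DESeq2, TMM-rescaled values, other filters and pseudocounts, a replicate block and the removal of samples. The removal of samples with edgeR and DESeq2 was chosen after seeing the data.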

Additional observations from a re-analysis of the deposited data

How the results depend on the processing

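With limma 3 members were higher and 7 lower. The removal of replicate 1 of both lines gave 17 and 14, beside 53.1% and 29.1% of all genes. Rescaling by TMM factors gave 11 lower, beside 14.5% of all genes. With the replicate block limma called 0 of all 14539 genes (edgeR and DESeq2 were not run with a block). An unadjusted p under 0.05 was found there for 4 members higher and 10 lower, beside 17.9% and 11.7% of all genes. The deviations of same-numbered samples from the mean of their line correlated at -0.53, -0.43 and -0.31. In most called genes sample 1 of each line lay toward the other line, which by itself makes these correlations negative. They cannot decide whether the numbers pair the samples. The samples numbered 1 were the closest pair, with a standard deviation of 0.51 for their log2 difference. Over limma, edgeR and DESeq2 with 1 sample left out, members called higher numbered 0 to 10 and lower 0 to 16, and the fold change of CCNG2 lay between -0.73 (called, without mutant replicate 1) and 0.24. For the other genes p53 activates these ranges were 0 to 22 and 0 to 24, for regulators and cofactors 0 to 14 and 0 to 11, and for DREAM-repressed genes 0 to 29 and 0 to 5. Over all genes these fits with 1 sample left out called 0.00% to 35.6% higher and 0.00% to 29.9% lower. Without replicate 1 of both lines the 3 lists gave 30, 21 and 32 higher and 19, 9 and 3 lower, beside 53.1% and 29.1% of all genes.

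Other genes p53 activates were called higher for 7 with upper-quartile factors in edgeR, and lower for 11 with edgeR, 16 with DESeq2 and 12 with TMM rescaling, against 11 and 6. Regulators called higher were 3 and 2 with TMM and upper-quartile factors in edgeR, against 6. Among DREAM-repressed genes 1 was lower with edgeR, DESeq2 and TMM rescaling, against 0. Of all genes upper-quartile factors in edgeR called 11.2% higher and 9.92% lower, and TMM rescaling in limma 14.9% and 14.5%. Other filters and pseudocounts moved no count of calls over the members or the 3 lists by over 1.5 times, but with no filter TP63 was called lower (adjusted p = 0.0376), against 0 lower among the feedback genes. The cause of these shifts was not tested. TP63 held 0 to 11 reads a sample, which limits that call.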
